A study of Mus musculus with 6 samples.

Results

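Transcripts of genes for DNA replication and mitosis were followed in 6 samples labelled as mouse aorta. The list held 36 genes, named for their known part in copying or dividing chromosomes. Each gene was read from the probe set that carries its symbol alone and has the highest mean over the 6 arrays. Of the 36 genes, 35 had such a probe set, among 21789 probe sets with 1 gene symbol. Ccnb1, which encodes cyclin B1, had none and is not analysed here. The signals are log2 values of a one-colour array, so a step of 1 is a 2-fold change, and signals of different probe sets are not set against each other.

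RNA from 3 samples of Trail knockout mice was compared with RNA from 3 wild-type samples. All 6 are labelled as strain C57Bl6/J and as 6 weeks old, and the labels name no treatment. Trail, the product of Tnfsf10, binds death receptors and can set off apoptosis, and the comparison asked which transcripts of aortic tissue differ when it is lacking. The knockout mice came from Amgen. The labels give neither the deleted part of the gene nor the number of mice behind a sample, so the p-values below cover only sample-to-sample spread, which may be technical. Precision is limited by the small number of arrays.

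The array labelled wild type 1 stood apart from the other 5 arrays, and differences between the genotypes are therefore given with it (6 arrays) and without it (5 arrays). Its correlation with the others over all annotated probe sets was 0.899 to 0.907, against 0.974 to 0.996 among the others. All 12 skeletal muscle markers and all 12 squamous epithelium markers were lowest there, with squamous list medians of 5.01 on that array and 10.02 to 10.33 on the others. All 7 brown fat, 9 white fat and 10 endothelial markers were highest there. Stomach markers stood out on the array labelled knockout 2 (list median 12.42) and, less so, on wild type 3 (6.79, with Gkn1 at 8.99, against 4.81 to 5.42 for the list elsewhere), and lung markers on the array labelled knockout 1 (8.13, with the surfactant gene Sftpc at 11.88). Acta2, the smooth muscle actin that marks the aortic wall, lay between 12.27 and 12.63 on all 6 arrays. Of the 10 smooth muscle markers, however, 3 were lowest and 3 highest on wild type 1, with Des at 7.86 there against 11.18 to 11.62 elsewhere and Itga8 at 11.14 against 6.92 to 7.90. Tnfsf10 itself gave 8.42 on the array labelled wild type 1, 4.90 and 4.85 on the other wild-type arrays, and 5.02, 4.48 and 4.09 on the knockout arrays. Wild type 2 and 3 thus lay among the knockout values, so the targeted gene does not bear out the genotype labels of those arrays. The mean of that probe set, 5.29, lay under the threshold of the filter on low signal used below (5.86). The values on the 5 arrays other than wild type 1 did so too. So low a signal may not separate the genotypes, so these values do not decide whether the labels are right. The position of that probe set relative to the deletion is unknown. Arrays are named below as labelled, and every direction between genotypes rests on those labels.

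A dividing cell first licenses its replication origins, when Cdc6 and Cdt1 load the ring of Mcm2 to Mcm7 onto DNA, and then turns this helicase on with the help of Mcm10 and the GINS complex. Cyclin E with Cdk2 drives entry into DNA synthesis, and cyclins A and B with Cdk1 drive mitosis. Many replication genes are targets of E2F factors in late G1, whereas mitotic genes peak later, in G2, under B-Myb and Foxm1. In a resting adult artery most smooth muscle and endothelial cells are out of cycle, and these genes are read as a sign of how much of a tissue is dividing. In a bulk sample, fewer dividing cells and less RNA per dividing cell cannot be told apart.

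No replication or mitosis gene passed the test between the genotypes. In limma, 0 of the 35 genes had an adjusted p under 0.05 on 6 arrays, as did 0% of the 14046 probe sets tested. With wild type 1 left out the count was again 0 of 35, against 0% of all tested. Of the 35 genes, 28 passed the filter on low signal and entered these fits. The other 7 (Cdc6, Mcm10, Gins1, Ccne2, E2f1, Foxm1 and Bub1) have values from the same fit without that filter, where none of the 35 passed on either set of arrays.

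What the arrays did show was a split between arrays of 1 genotype. The array labelled wild type 2 was the highest of the 5 arrays other than wild type 1 for 28 of 35 genes, against 29.1% of all probe sets tested. Counting all 6 arrays, it was highest for 24 of 35, against 20.5%. The array labelled wild type 1 was the lowest of 6 for 18 of 35 genes, against 31.6%, and these 18 held all 11 genes of mitosis but 1 of the 11 genes of licensing and initiation. The 3 knockout arrays lay closer together, with a median SD of 0.12 over the genes, against 0.34 in the wild-type group. Over all probe sets tested these medians were 0.15 and 0.24.

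**Figure D1:**
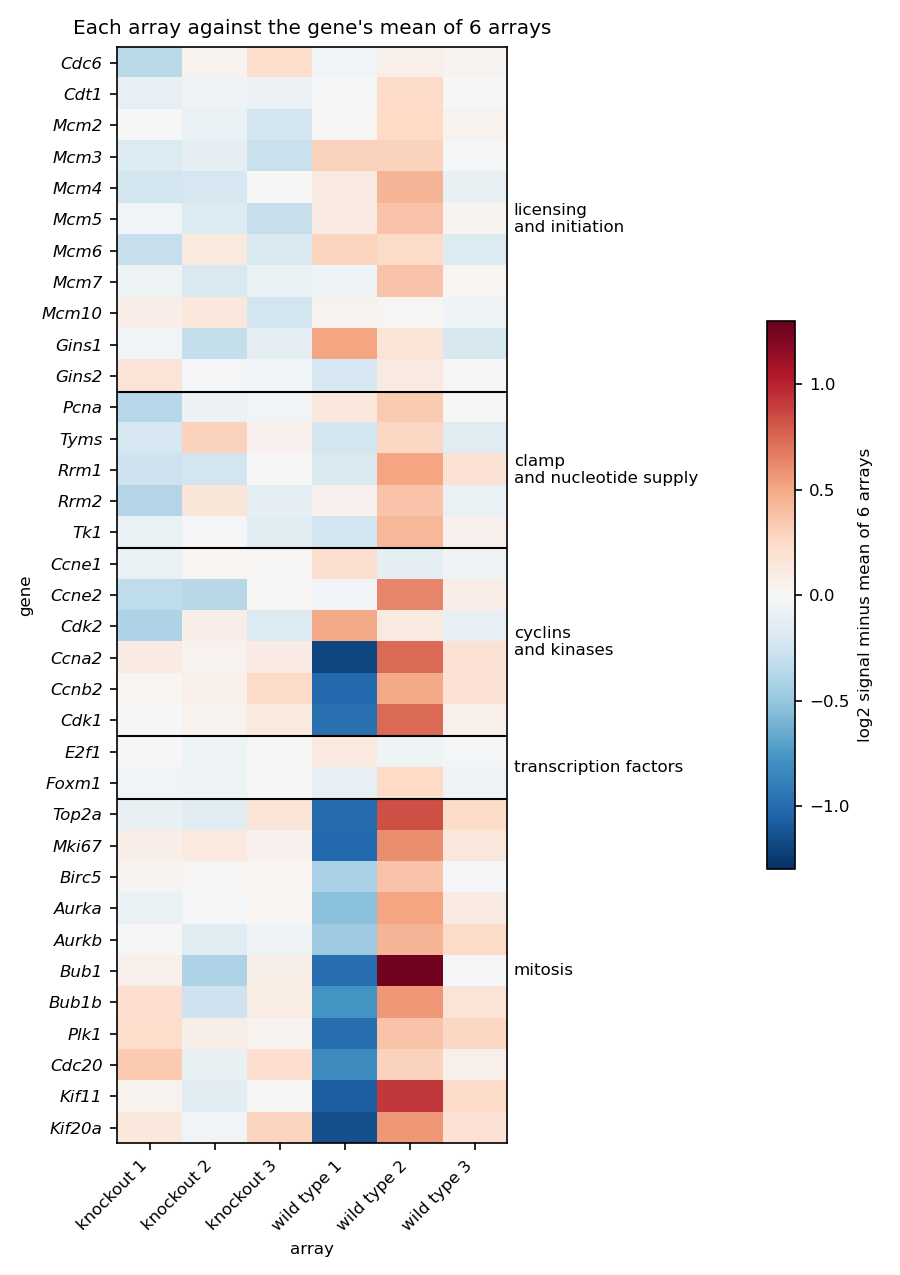
Log2 signal of each of the 35 genes (rows, grouped by role) on each of the 6 arrays (columns), as the difference from that gene's mean over the 6 arrays. Blue cells in the column of wild type 1 cover all 11 mitosis genes together with Ccna2, Ccnb2 and Cdk1. Red cells in the column of wild type 2, the highest array for 24 of 35 genes, run through several roles.

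With all 6 arrays the mean was lower in the knockout for 24 of 35 genes, against 56.5% of all probe sets tested, and the median difference, knockout minus wild type, was -0.06 on the log2 scale, against -0.03 over all tested. Without wild type 1 the mean was lower for 32 of 35 genes, against 58.4%, and the median difference was -0.26, against -0.03 over all tested. The value depended on single wild-type arrays. Leaving out the array labelled wild type 2 as well gave 26 of 35 and a median of -0.07, and leaving out wild type 3 in its place gave -0.48. With wild type 1 kept and wild type 2 left out, 17 of 35 means were lower and the median was 0.016. Giving each array a fitted weight moved the median on 6 arrays to -0.22.

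Groups that do not overlap were fewer with all arrays than without wild type 1, among these genes and over all probe sets tested. On 6 arrays, 5 of 35 genes were lower on every knockout array than on every wild-type array, against 4.29% of all tested, and 0 were higher, against 1.31%. On 5 arrays, 16 of 35 were lower without overlap, against 8.45%, and 0 were higher, against 4.13%. A gene lower without overlap on 5 arrays has, by definition, both remaining wild-type arrays above every knockout array. The array labelled wild type 2 was above every knockout array for 28 of 35 genes, against 32% of all tested. The array labelled wild type 3 was so for 16 of 35, against 17.6%, and these are the same 16 genes. Wild type 3 was above the mean of the knockout arrays for 26 of 35, against 51.4%, by a median of 0.07. An unadjusted limma p under 0.05 with a lower knockout mean was found for 2 of the 28 genes past the filter on 6 arrays, against 0.534% of all tested, and for 5 of 28 on 5 arrays, against 1.22%. In the fit without the filter Ccne2 also had such a p on 5 arrays (0.0223). No gene of the list had such a p with a higher mean on either set. Over all probe sets, 89 had an unadjusted p under 0.05 on 6 arrays and 217 on 5.

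**Figure D2:**
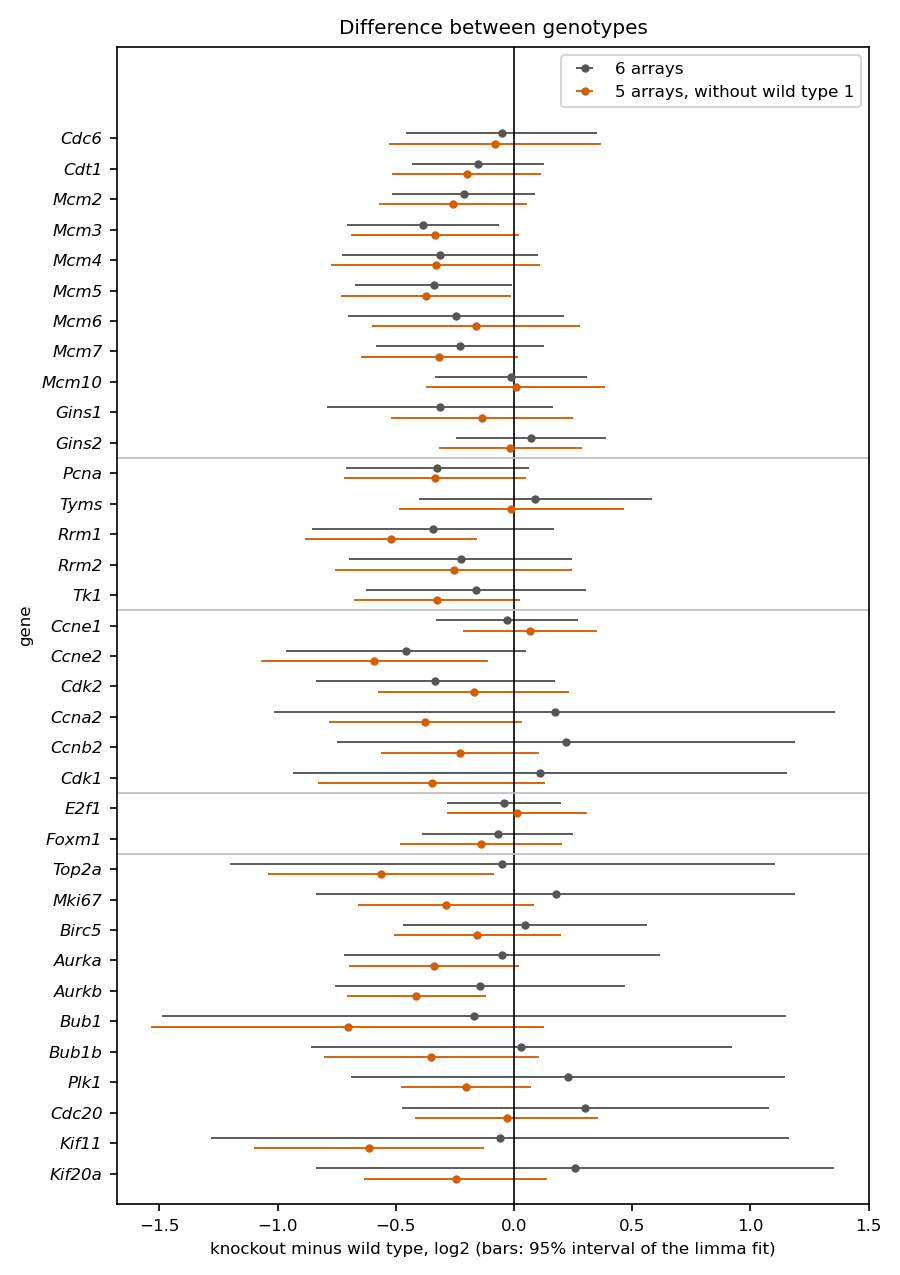
Knockout minus wild type for each of the 35 genes on the log2 scale, with 95% intervals of the limma fits on all 6 arrays (grey) and on the 5 arrays other than wild type 1 (orange). Genes run from licensing at the top to mitosis at the bottom. The grey intervals of the mitosis genes are wide, as for Kif11 from -1.28 to 1.16, and narrow when wild type 1 is left out, to -1.10 to -0.13.

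The genes that load and start the replicative helicase had lower means in the knockout by small amounts, on 6 arrays and on 5, and none passed the test. Of 11 genes, 10 had a lower mean on 6 arrays (median difference -0.23) and 10 on 5 arrays (median -0.20). The 4 whose groups did not overlap on 6 arrays were Cdt1, Mcm2, Mcm3 and Mcm5, and Mcm7 joined them on 5 arrays. Mcm3, a subunit of the ring, gave 5.94, 6.00 and 5.82 on the knockout arrays and 6.41, 6.41 and 6.10 on the wild-type arrays. All 3 wild-type values lay above all 3 knockout values, and wild type 1 was as high as wild type 2. The difference for Mcm3 was -0.39 (SE 0.13, 95% interval -0.71 to -0.06, limma adjusted p = 0.921), and -0.33 without wild type 1 (SE 0.15, limma adjusted p = 0.997).

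Mcm5, another subunit, gave 6.55, 6.41 and 6.29 in the knockout samples and 6.69, 6.96 and 6.63 in the wild-type samples. Here too the groups were apart, with the closest pair, knockout 1 and wild type 3, separated by less than the spread within either group. The Mcm5 difference was -0.34 (SE 0.13, 95% interval -0.67 to -0.0077, limma adjusted p = 0.921) on 6 arrays and -0.37 (SE 0.15, 95% interval -0.73 to -0.015, limma adjusted p = 0.997) on 5. These were the only genes of the list with an unadjusted p under 0.05 on 6 arrays, 0.026 for Mcm3 and 0.046 for Mcm5.

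The other Mcm subunits lay closer together or overlapped. Mcm2, without overlap by a narrow gap, gave 6.91, 6.83 and 6.68 in the knockout and 6.93, 7.18 and 6.96 in the wild type. Mcm7 ranged from 6.89 to 7.04 in the knockout and gave 7.03, 7.47 and 7.12 in the wild type, so that wild type 1 fell among the knockout values. Mcm4 gave 6.31, 6.33 and 6.54 against 6.67, 6.99 and 6.45, where knockout 3 and wild type 3 changed places. Mcm6 was low on knockout 1 (6.94), knockout 3 (7.04) and wild type 3 (7.06) and high on knockout 2 (7.36), wild type 1 (7.53) and wild type 2 (7.49), so that its order did not follow genotype.

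The loaders and activators showed no common order. Cdt1, a loading factor kept in check by geminin, lay between 6.01 and 6.07 in the knockout and gave 6.10, 6.36 and 6.12 in the wild type, a difference of -0.15 (SE 0.11), or -0.20 without wild type 1. Cdc6, the other loader, ranged from 5.21 on knockout 1 to 5.79 on knockout 3, and its wild-type values of 5.54 to 5.64 lay inside that range. Gins1, a subunit of the GINS complex, was highest on wild type 1 (5.51) and differed by -0.31 (SE 0.20) with that array and by -0.14 without it. Gins2 differed by 0.07 (SE 0.13) and Mcm10, which helps the helicase start, by -0.015 (SE 0.13), and without wild type 1 by -0.016 and 0.0064. Cdc6, Gins1 and Mcm10 are among the genes under the filter on low signal.

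Of the clamp and nucleotide genes, Pcna, Rrm1 and Tk1 were lower without overlap on 5 arrays, and Rrm2 and Tyms overlapped. Pcna, the sliding clamp of the DNA polymerases, gave 8.64, 8.94 and 8.98 in the knockout and 9.15, 9.36 and 9.02 in the wild type. It was the fifth gene of the list without overlap on 6 arrays, with a difference of -0.32 (SE 0.16, limma adjusted p = 0.921) and of -0.34 on 5 arrays. A further probe set that carries the symbol Pcna gave -0.36. Rrm1, the large subunit of ribonucleotide reductase, gave 8.16, 8.18 and 8.43 in the knockout and 8.25, 8.94 and 8.62 in the wild type, so that wild type 1 sat among the knockout arrays and the others above them. Its difference was -0.34 (SE 0.21) on 6 arrays and -0.52 (SE 0.15, 95% interval -0.89 to -0.16, limma adjusted p = 0.997) on 5.

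Rrm2, the small subunit made in S phase, was highest on wild type 2 (6.61), but knockout 2 (6.40) lay above the other wild-type arrays, and the difference was -0.23 (SE 0.19), or -0.25 without wild type 1. Tk1, the thymidine kinase of the salvage pathway, gave 6.40, 6.46 and 6.34 against 6.23, 6.92 and 6.54 and differed by -0.16 (SE 0.19), or -0.33 without wild type 1. The other probe set of Tk1 gave -0.12. Its groups overlapped on 5 arrays too, with knockout 1 at 6.08 and wild type 3 at 5.90. Wild type 1 (5.76) was not its lowest array, so the place of Tk1 in these counts depends on the probe set. Tyms, thymidylate synthase, was highest on knockout 2 (6.80) and wild type 2 (6.77) and differed by 0.09 (SE 0.20) and by -0.012 without wild type 1.

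The cyclins and their kinases differed in where wild type 1 stood. Of the genes of entry into S phase, Ccne1 and Cdk2 were highest on wild type 1, and Ccne2 was not. Cdk2 gave 6.80, 7.29 and 7.03 in the knockout and 7.70, 7.32 and 7.10 in the wild type, and its difference of -0.33 (SE 0.21) became -0.17 without that array. Ccne1, cyclin E1, lay between 6.19 and 6.51 on all arrays and differed by -0.03 (SE 0.12), or 0.067 without wild type 1. Ccne2, cyclin E2, gave 4.42, 4.39 and 4.77 in the knockout and 4.72, 5.39 and 4.84 in the wild type, all in the low part of the signal range. Its difference was -0.46 (SE 0.21) on 6 arrays and -0.59 (SE 0.20, 95% interval -1.07 to -0.11, limma adjusted p = 0.999) on 5.

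Ccna2, Ccnb2 and Cdk1, which carry a cell through G2 into mitosis, were lowest on wild type 1 and highest on wild type 2. Ccna2, cyclin A2, gave 7.44, 7.38 and 7.45 in the knockout and 6.16, 8.07 and 7.52 in the wild type. The 3 knockout values lay close together, with wild type 1 far below them and wild type 2 far above. The group means therefore differed little, by 0.17 (SE 0.48, 95% interval -1.01 to 1.36, limma adjusted p = 0.947), and by -0.37 without wild type 1 (SE 0.17, 95% interval -0.78 to 0.04, limma adjusted p = 0.997). Cdk1, the kinase that triggers mitosis, gave 6.54, 6.58 and 6.66 in the knockout and 5.57, 7.28 and 6.61 in the wild type. Its difference changed from 0.11 (SE 0.42) to -0.35 (SE 0.20) when wild type 1 was left out. Ccnb2, cyclin B2, gave 7.40, 7.44 and 7.62 against 6.37, 7.87 and 7.56, and changed from 0.22 (SE 0.39) to -0.23 (SE 0.14).

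The 2 transcription factors varied little. E2f1 lay between 5.33 and 5.51 on the 6 arrays and Foxm1, the factor that drives the G2 genes, between 5.73 and 6.10, with its highest value on wild type 2. Their differences were -0.04 (SE 0.10) and -0.07 (SE 0.13) on 6 arrays and 0.013 and -0.14 on 5. Both means lie under the filter on low signal, Foxm1 at 5.84 just below its threshold of 5.86.

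The genes of mitosis were all lowest on wild type 1, and 10 of 11 were highest on wild type 2. On 6 arrays 5 of 11 had a lower mean in the knockout (median difference 0.03), and on 5 arrays 11 of 11 (median -0.34). Without wild type 1 as well as wild type 2, 9 of 11 knockout means lay below wild type 3, by a median of 0.14. Mki67, whose product Ki-67 coats mitotic chromosomes and serves as the common stain for dividing cells, gave 7.84, 7.88 and 7.80 in the knockout and 6.74, 8.36 and 7.90 in the wild type. Its knockout arrays again lay close together, and wild type 1 was 2.10-fold below the lowest of them. The difference was 0.18 (SE 0.41, 95% interval -0.84 to 1.19, limma adjusted p = 0.938), and -0.29 without wild type 1 (SE 0.16, 95% interval -0.66 to 0.09, limma adjusted p = 0.997).

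Top2a, the topoisomerase that untangles sister chromatids, gave 7.64, 7.58 and 7.90 in the knockout and 6.73, 8.57 and 7.97 in the wild type, with a difference of -0.05 (SE 0.47) on 6 arrays and -0.56 (SE 0.20, limma adjusted p = 0.997) on 5. Another probe set with the symbol Top2a had a mean of 2.40 on the 6 arrays, in the lowest part of the range, and did not share this order: it was highest on wild type 1 (2.80). Its knockout values were lower without overlap on both sets of arrays. The difference was -0.43 (SE 0.11) on 6 arrays and -0.33 (SE 0.099) on 5. In the fit without the filter the limma adjusted p was 0.951 and 0.999. Kif11, the motor that pushes spindle poles apart, gave 6.69, 6.50 and 6.67 against 5.57, 7.56 and 6.90. The Kif11 difference was -0.06 (SE 0.50) with all arrays and -0.61 (SE 0.20, limma adjusted p = 0.997) on 5. Kif20a, a kinesin of the midzone, gave 6.73, 6.56 and 6.88 against 5.45, 7.16 and 6.78 and was 2.15-fold lower on wild type 1 than on any other array.

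Bub1 and Bub1b encode proteins of the spindle checkpoint, and Bub1 had the widest wild-type spread of the list (SD 1.12, n = 3). Bub1 gave 5.78, 5.32 and 5.79 in the knockout and 4.73, 6.96 and 5.70 in the wild type. Its value on wild type 2 lay 1.18 above the next highest array, and wild type 3 fell among the knockout arrays. The Bub1 difference was -0.17 (SE 0.54) on 6 arrays and -0.70 (SE 0.35, 95% interval -1.53 to 0.13, limma adjusted p = 0.999) on 5, the largest of the list, and it rested on wild type 2. Bub1b gave 6.88, 6.39 and 6.76 against 5.89, 7.22 and 6.83, and its difference turned from 0.03 (SE 0.36) to -0.35 (SE 0.19) without wild type 1.

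The mitotic kinase genes Aurkb, Aurka and Plk1 had groups that did not overlap once wild type 1 was left out. Aurkb, the kinase of the chromosomal passenger complex, gave 6.59, 6.43 and 6.52 in the knockout and 6.12, 7.03 and 6.83 in the wild type. Wild type 2 and 3 both lay above the knockout arrays, and the difference was -0.14 (SE 0.25) on 6 arrays and -0.41 (SE 0.12, 95% interval -0.71 to -0.12, limma adjusted p = 0.997) on 5. Birc5, or survivin, a partner of Aurkb in that complex, lay between 6.27 and 6.29 in the knockout and gave 5.83, 6.63 and 6.24 in the wild type. Aurka, the kinase of the spindle poles, gave 6.30, 6.37 and 6.41 against 5.84, 6.90 and 6.50, with a difference of -0.05 (SE 0.27) that became -0.34 (SE 0.15).

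Plk1 and Cdc20 were low on wild type 1 but only slightly high on wild type 2. Plk1, a kinase of mitotic entry and exit, gave 7.28, 7.13 and 7.09 in the knockout and 6.07, 7.42 and 7.32 in the wild type. Cdc20, the activator of the anaphase-promoting complex, gave 7.35, 6.91 and 7.22 against 6.19, 7.31 and 7.08, and its highest value was on knockout 1. Their differences were 0.23 (SE 0.37) and 0.30 (SE 0.31) on 6 arrays and -0.20 (SE 0.12) and -0.03 (SE 0.16) on 5. Within the knockout group, knockout 2 was the lowest array for 8 of 11 mitosis genes, against 42.4% of all probe sets tested, and knockout 1 was the lowest for 4 of the 5 genes of the clamp and nucleotide supply, against 26.3%.

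**Figure D3:**
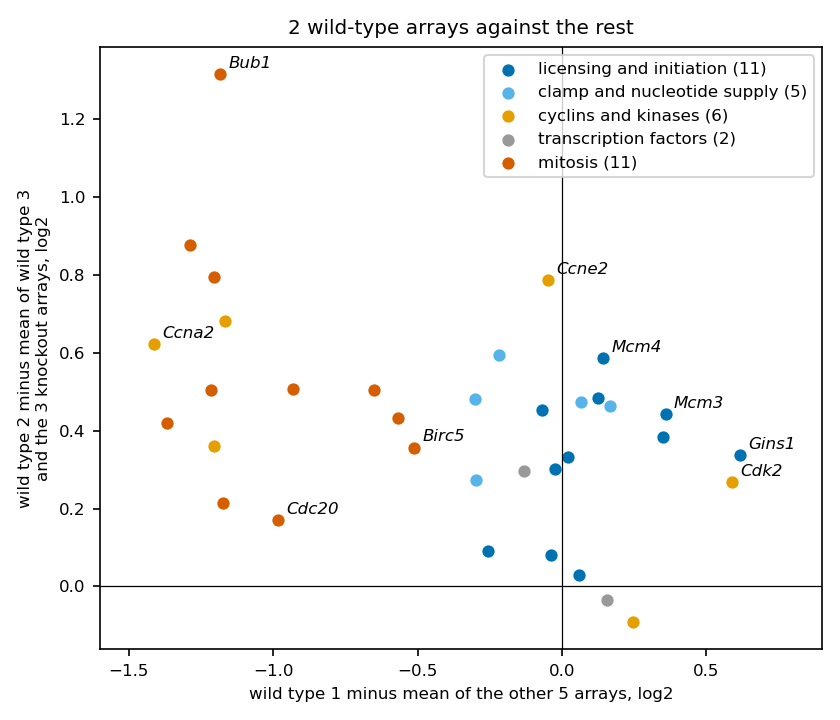
For each of the 35 genes, the array labelled wild type 1 minus the mean of the other 5 arrays (horizontal, log2) against wild type 2 minus the mean of wild type 3 and the 3 knockout arrays (vertical, log2), coloured by role. Mitosis genes lie at the left, between -1.37 and -0.51, and licensing genes between -0.26 and 0.62, while most genes of either kind lie above 0 on the vertical axis.

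On wild type 1 the roles thus parted. The median of that array minus the mean of the other 5 was -1.17 over the 11 mitosis genes, -0.61 over the 6 cyclins and kinases, -0.22 over the 5 genes of the clamp and nucleotide supply and 0.06 over the 11 licensing genes, against 0.04 over all probe sets tested. It was over 2-fold below every other array for 5 of 35 genes, against 7.41% of all tested, namely Ccna2, Ccnb2, Mki67, Plk1 and Kif20a. It was above every knockout array for 7 of the 11 licensing genes and for 0 of the 11 mitosis genes, against 41% of all tested. On wild type 2 the roles did not part in this way: the median of that array minus the mean of the other 4 was 0.34 for licensing, 0.47 for clamp and nucleotide supply, 0.49 for cyclins and kinases and 0.50 for mitosis, against 0.05 over all tested.

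Under other scalings of the arrays the counts for mitosis and licensing held, and those over all 35 genes moved a little. Wild type 1 was lowest for 11 of 11 mitosis genes and 1 of 11 licensing genes with the values as deposited, after quantile normalization and after centring on the median. Wild type 2 was the highest of 5 arrays for 28, 28 and 30 of 35 genes in the same 3 settings.

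Markers of other tissues were set beside these values. Squamous epithelium, whose basal layer divides throughout life, gave a log2 summed signal of 8.71 on wild type 1, against 15.02 to 15.15 on the other wild-type arrays and 14.96 to 15.12 on the knockout arrays. The basal keratin gene Krt5 gave 4.85 on wild type 1 and 10.98 to 11.39 elsewhere, and Trp63, the regulator of basal cells, 5.65 there and 8.17 to 8.62 elsewhere. Wild type 2 had the highest Krt5 and Trp63 values, 11.39 and 8.62, close to the next arrays. Krt14 and Krt15, however, were highest on knockout 1 (10.08 and 11.35, against 10.06 and 11.26 on wild type 2). Of the 12 squamous markers, 7 were highest of 6 on wild type 2. On 5 arrays the knockout mean was the lower one for 12 of 12 skeletal muscle markers (median difference -0.13), with knockout 2 the lowest knockout array for all 12. The knockout mean was also lower for 10 of 10 macrophage markers on 6 arrays (median -0.34) and on 5 (median -0.21), with knockout 2 the lowest knockout array for 9. Over all probe sets tested it was lower for 56.5% on 6 arrays and 58.4% on 5. Squamous markers were lower for 9 of 12 on 5 arrays (median -0.07). Other lists went the other way on 5 arrays. The knockout mean was higher for 9 of 10 endothelial (median 0.14) and 8 of 10 smooth muscle markers (0.04). It was also higher for 8 of 9 white fat (0.83), 9 of 9 stomach (1.40) and 7 of 8 lung markers (0.78). White fat markers had their lowest summed signal on wild type 2 (10.49, against 10.78 to 11.77 in the knockout, 10.84 on wild type 3 and 14.26 on wild type 1). Lymphocyte markers gave 9.99 on wild type 1, 9.15 and 9.27 on the other wild-type arrays and 8.94 to 9.45 in the knockout. The part of these tissues in the values of the replication and mitosis genes was not tested.

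Other genes of the same machinery were read in 3 lists by function, set with earlier results of these data known. They come from the same 6 arrays, so a shared pattern is no separate support. Of all probe sets tested, 20.5% were highest on wild type 2 and 31.6% lowest on wild type 1. The mitosis list showed the same split as the genes above. Of 50 further genes of mitosis on the array, 46 were highest on wild type 2 and 40 lowest on wild type 1. Their median difference was -0.01 on 6 arrays and -0.32 on 5, where all 50 had a lower mean in the knockout, against 58.4% of all tested. Of 40 further replication genes, 22 were highest on wild type 2 but only 6 lowest on wild type 1, with a median difference of -0.20 on 6 arrays and -0.19 on 5. Brakes of the cycle and G1 genes, 32 in number, stood nearer the shares of all probe sets. Of these, 9 were highest on wild type 2 and 7 lowest on wild type 1, and their medians were -0.07 and -0.03. In limma, 0 genes of the 3 lists had an adjusted p under 0.05 on 6 or on 5 arrays. Past the filter were 31 replication genes, 37 mitosis genes and 29 brakes. Of these, 4, 0 and 0 had an unadjusted p under 0.05 with a lower knockout mean on 6 arrays, against 0.534% of all tested, and 1, 10 and 0 on 5, against 1.22%. In the fit without the filter, Wdhd1 also had such a p on both sets, and Cenph, Cenpk and Sgo1 on 5 arrays. These 4 were chosen after their values were seen.

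Some of these genes give the values behind the counts. They were picked for a low unadjusted limma p, so their order and lack of overlap follow in part from that choice. Prc1, a bundler of midzone microtubules, gave 7.13, 6.66 and 6.99 in the knockout and 5.51, 7.85 and 7.25 in the wild type, with a difference of 0.057 (SE 0.60) on 6 arrays and -0.62 (SE 0.22, limma adjusted p = 0.997) on 5. Knl1, a scaffold of the kinetochore, gave 6.34, 5.88 and 6.33 against 5.62, 7.19 and 6.53, and Ncapg, a condensin subunit, 5.83, 5.94 and 6.00 against 5.17, 6.97 and 6.17. In each, wild type 2 was highest, wild type 3 next and wild type 1 lowest, as for Kif11 and Top2a. Over the whole list of 50 further mitosis genes, wild type 3 was above every knockout array for 23, against 17.6% of all probe sets tested. Among replication genes, Tipin, a fork protection factor, gave 6.60, 6.50 and 7.03 in the knockout and 7.21, 7.24 and 7.05 in the wild type, without overlap, with a difference of -0.46 (SE 0.17, limma adjusted p = 0.921) on 6 arrays and -0.44 (SE 0.18) on 5. Orc6, of the origin recognition complex, gave 7.08, 7.02 and 7.26 against 7.66, 7.50 and 7.28, also without overlap, with wild type 1 the highest. Of the brakes, Cdkn2b, an inhibitor of Cdk4 and Cdk6, had the lowest p on both sets and was higher on knockout 2 (7.34) than elsewhere (6.53 to 6.87), with a difference of 0.35 on 6 arrays (SE 0.19) and on 5 (SE 0.20).

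**Figure D4:**
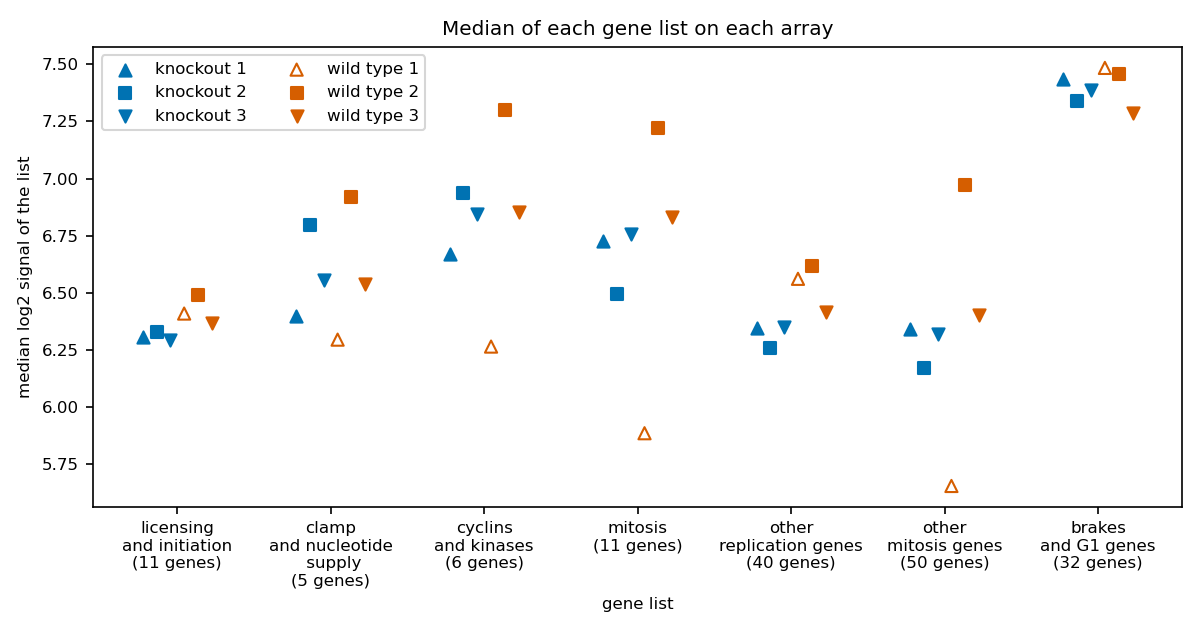
Median log2 signal of 7 gene lists on each array, with knockout arrays in blue and wild-type arrays in orange (wild type 1 as an open symbol). The mitosis medians spread from 5.89 on wild type 1 to 7.22 on wild type 2, those of the other mitosis genes from 5.65 to 6.97, and those of licensing from 6.29 on knockout 3 to 6.49 on wild type 2. Levels are compared within a list only.

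The promoters of the genes that parted on wild type 1 were then read for the elements through which cell cycle genes are known to be timed. Promoter windows from RefSeq (build GRCm38.p6), from 250 bases before to 50 after the start of transcription, were found for 28 of the 36 genes. The letters searched on both strands were TTTGAA for the cell cycle homology region, the element bound by the B-Myb and Foxm1 complexes, CCAAT for the box of NF-Y, and the octamers TTTCGCGC, TTTCCCGC, TTTGGCGC and TTTGCCGC for E2F. None of these motifs contains another, but matches can overlap, as E2F octamers on opposite strands do. A match is a description of letters and shows no binding.

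The 160 bases before the start are shown for 4 genes that were lowest on wild type 1 and for 2 Mcm genes that were not, with all matches in capitals. Cdc20 lies at chr4:118437344-118437503 on the minus strand, Top2a at chr11:99024190-99024349 on the minus strand, Kif11 at chr19:37376222-37376381 on the plus strand and Cdk1 at chr10:69352913-69353072 on the minus strand. Mcm6 lies at chr1:128359706-128359865 on the minus strand and Mcm5 at chr8:75109349-75109508 on the plus strand.
Cdc20: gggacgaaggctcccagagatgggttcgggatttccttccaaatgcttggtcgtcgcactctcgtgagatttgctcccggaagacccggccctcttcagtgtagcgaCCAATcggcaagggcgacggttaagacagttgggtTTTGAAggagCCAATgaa
Top2a: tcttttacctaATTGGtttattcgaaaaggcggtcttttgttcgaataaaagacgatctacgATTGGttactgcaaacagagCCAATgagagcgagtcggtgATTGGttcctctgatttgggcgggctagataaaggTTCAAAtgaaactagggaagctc
Kif11: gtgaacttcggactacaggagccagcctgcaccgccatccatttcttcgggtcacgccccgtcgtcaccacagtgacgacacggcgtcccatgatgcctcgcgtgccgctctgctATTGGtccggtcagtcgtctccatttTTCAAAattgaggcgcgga
Cdk1: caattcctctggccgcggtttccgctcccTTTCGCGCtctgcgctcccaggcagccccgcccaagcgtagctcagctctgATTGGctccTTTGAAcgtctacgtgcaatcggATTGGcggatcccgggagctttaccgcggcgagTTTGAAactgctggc
Mcm6: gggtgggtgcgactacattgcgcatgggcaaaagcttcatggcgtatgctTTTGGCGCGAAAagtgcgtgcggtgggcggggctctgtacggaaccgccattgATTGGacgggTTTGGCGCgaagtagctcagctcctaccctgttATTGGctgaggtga
Mcm5: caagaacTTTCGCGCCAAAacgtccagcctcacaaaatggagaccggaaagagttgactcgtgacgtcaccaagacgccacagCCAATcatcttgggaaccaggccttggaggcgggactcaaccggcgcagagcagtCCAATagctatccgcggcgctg
In Cdc20, Top2a, Kif11 and Cdk1 the nearest TTTGAA, read on either strand, begins at -18, -23, -19 and -15 from the start. Mcm6 and Mcm5 hold none, and their nearest E2F octamers begin at -47 and -149.

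Counted by role, TTTGAA was found in 7 of 9 mitosis genes with a window, 2 of 5 cyclins and kinases (Ccnb1, which has no probe set here, included), 0 of 5 genes of the clamp and nucleotide supply and 1 of 8 licensing genes, against 20.2% of 27025 genes in the table. An E2F octamer was found in 0 of 9 mitosis genes, 2 of 5 cyclins and kinases, 0 of 5 genes of the clamp and nucleotide supply and 6 of 8 licensing genes, against 2.6% of all genes. CCAAT was found in 8 of 9 mitosis and 6 of 8 licensing genes, against 41.1%. The 2 mitosis genes without TTTGAA, Bub1 and Birc5, were also lowest on wild type 1. The licensing gene with TTTGAA was Mcm2 (at -70), which was not lowest on wild type 1. In Bub1b, Aurka and Plk1 the match lay after the start, at 40, 32 and 30. A TTTGAA of Ccnb2 (at 4) and an E2F octamer of Mcm3, Mcm7 and Cdt1 (at 38, 16 and 32) also lay after it. Ccnb2, Mcm3 and Mcm7 hold 2 such matches each. The promoters printed above are picked examples and do not show these cases.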

How the data were processed

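Per the labels, biotinylated cRNA was made from 6 ug of total RNA and read on one-colour Affymetrix arrays. The deposited values are log2 signals, 1 column for each sample and no column without one. The log base was read from their range. MAS5 appears in the submitters' processing notes without a role or version. Background correction and scaling were not given in the sources used here, and either could alter differences of genes with low signal.

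The values were used as deposited, without pseudocount. The genotypes were compared by limma 3.58.1 under R 4.3.3, with genotype as the only term, an intensity trend and Benjamini-Hochberg adjustment over 14046 of 23410 annotated probe sets, leaving out the lowest 40% by mean signal. Replicate numbers come from the titles. The code was tested on simulated data. Members and lists were chosen with earlier results of these data known. All members are named, and of the other genes those named are, unless stated, among the 4 with the lowest p of their list on either set of arrays, counting probe sets past the filter. Alternatives were quantile normalization, median centring, a pseudocount of 64, no filter, a 60% filter, other moderation, array weights, another probe set, a replicate block and leaving out each array.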

Additional observations from a re-analysis of the deposited data

How the results depend on the processing

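No gene of the list had a limma adjusted p under 0.05 in any alternative, on 6 arrays (lowest 0.767) or on 5 (lowest 0.612), and 3 arrays a group leave small differences undetectable. On 6 arrays 13 of 35 genes kept their sign throughout, and on 5 arrays 25. The genes' median difference without 1 array ran from -0.26 (wild type 1 left out) to 0.016 (wild type 2 left out) on 6 arrays and from -0.48 to -0.072 on 5. Array weights turned Mcm10 (0.020), Tyms (-0.034), Ccne1 (0.039), Ccna2 (-0.28), Ccnb2 (-0.18), Cdk1 (-0.27), E2f1 (0.0092), Mki67 (-0.22), Birc5 (-0.11), Bub1b (-0.24), Plk1 (-0.14) and Kif20a (-0.17) on 6 arrays, and Gins2 (0.018) and Cdc20 (0.026) on 5. Median centring turned Bub1b on 6 arrays (-0.0045) and Mcm10 on 5 (-0.0046), a pseudocount of 64 turned Bub1b on 6 (-0.0041), and quantile normalization turned Mcm10 (-0.056) and E2f1 (-0.046) on 5. The cause was not tested. Leaving out 1 array turned these differences on 6 arrays, given as lowest to highest: Cdc6 -0.18 to 0.11, Mcm10 -0.089 to 0.10, Gins2 -0.016 to 0.15, Tyms -0.036 to 0.25, Tk1 -0.33 to 0.016, Ccne1 -0.092 to 0.067, Ccna2 -0.37 to 0.58, Ccnb2 -0.23 to 0.52, Cdk1 -0.35 to 0.51, E2f1 -0.079 to 0.013, Foxm1 -0.14 to 0.045, Top2a -0.56 to 0.36, Mki67 -0.29 to 0.52, Birc5 -0.15 to 0.24, Aurka -0.34 to 0.19, Aurkb -0.41 to 0.043, Bub1 -0.70 to 0.41, Bub1b -0.35 to 0.32, Plk1 -0.20 to 0.47, Cdc20 -0.032 to 0.53, Kif11 -0.61 to 0.38 and Kif20a -0.25 to 0.61. On 5 arrays, where a lone wild-type array is assumed to vary like the knockout group, they were Cdc6 -0.21 to 0.082, Mcm6 -0.37 to 0.052, Mcm10 -0.067 to 0.13, Gins1 -0.32 to 0.052, Gins2 -0.080 to 0.046, Tyms -0.22 to 0.20, E2f1 -0.0075 to 0.034, Foxm1 -0.29 to 0.014, Birc5 -0.35 to 0.038 and Cdc20 -0.15 to 0.092.

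Arrays with the same replicate number deviated together in no steady way (correlations 0.0946, -0.231 and 0.198). Pairs with different numbers ran from -0.325 to 0.41. So few arrays cannot settle whether those with the same number share more than the number. With the replicate block, 0 probe sets had an adjusted p under 0.05 on 6 arrays (lowest 0.972, with 73 at an unadjusted p under 0.05) and the genes' median difference was -0.061. On 5 arrays the count with the block was also 0. The lowest limma adjusted p there was 0.278, against 0.997 without the block. An unadjusted limma p under 0.05 was found for 285 probe sets, against 217 without it. On 5 arrays the replicate block turned Cdc6 (0.082), Mcm10 (-0.039) and Tyms (0.12).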
